A study of Mus musculus with 8 samples.

Results

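The antibody genes of mouse colon are described here across 3 groups of bulk RNA-seq libraries: the constant regions of the heavy chains (Igha, Ighm, Ighd, Ighg1, Ighg2b, Ighg2c and Ighg3) and of the kappa light chain (Igkc), the joining chain Jchain, and the transport receptor Pigr. They were taken by name, as the rows of the deposited count table whose Ensembl identifier carries one of these symbols in the mm10 annotation. All 10 were found, among 52636 identifiers in all. The animals were female wild-type C57BL/6 mice, 6 weeks old and germ-free by the study's title, housed in gnotobiotic isolators. Colon was collected at day 30 after oral gavage with Candida tropicalis MYA-3404 (2 libraries) or Candida albicans SC5314 (3 libraries), and from controls (3 libraries). The labels number the libraries of each group without saying that each is a separate mouse, so a p-value here reflects only how far the libraries of a group spread, and part of that spread may be technical.

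Plasma cells of the gut wall secrete mostly IgA, whose heavy chain constant region is encoded by Igha and which is joined into dimers by the J chain. The polymeric immunoglobulin receptor, encoded by Pigr in epithelial cells, carries these dimers through the epithelium and releases them into the lumen as secretory IgA. Ighm and Ighd are co-expressed by mature B cells before class switching, whereas the Ighg genes are used after a switch to an IgG subclass, and in germ-free mice intestinal IgA is known to be scarce compared with colonized mice.

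The libraries held 16195376 to 19761098 counts, and 16107 genes passed the filter on low counts, 9 of the 10 immunoglobulin and transport genes among them. Ighg2c, with 43 counts in all libraries together, did not pass. Levels are given as CPM, counts per 1000000 counts of the library total after TMM scaling. Control 1 stood apart from controls 2 and 3 in most antibody genes. All 14 colon epithelium markers had counts in every library, with summed levels of 25519 to 28354 CPM with C. tropicalis, 22049 to 25648 CPM with C. albicans and 20784 to 23066 CPM in controls. The 12 smooth muscle markers summed to 4356 to 5805 CPM with C. tropicalis, 10863 to 31436 CPM with C. albicans and 7818 to 14733 CPM in controls, so the libraries differed in how much of their RNA came from muscle genes. In bulk colon, fewer cells of a type and less RNA per cell cannot be told apart. An effect of isolator, cage or handling cannot be told apart from that of the group.

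The heavy chain genes lie on the minus strand of chromosome 12 of GRCm38 (mm10), with Igha (ENSMUSG00000095079) at chr12:113254830-113260236 and Ighm (ENSMUSG00000076617) at chr12:113418558-113422730. Igkc (ENSMUSG00000076609) is at chr6:70726435-70726966 on the plus strand, Jchain (ENSMUSG00000067149) at chr5:88519809-88527891 on the minus strand and Pigr (ENSMUSG00000026417) at chr1:130826684-130852249 on the plus strand. The IgG subclasses are close relatives, and their hinge exons are shown because this short exon, which joins the antigen-binding arms to the stem of the antibody, is where they are easiest to tell apart. The sequences are exon 2 of each gene from the GENCODE M21 transcripts on GRCm38, all on the minus strand. Capitals mark the in-frame cysteine codons, whose residues can form disulfide bridges between the chains of the antibody.
Ighg1, chr12:113329844-113329882: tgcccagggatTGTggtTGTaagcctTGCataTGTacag
Ighg2b, chr12:113307261-113307326: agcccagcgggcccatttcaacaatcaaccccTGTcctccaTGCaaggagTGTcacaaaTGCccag
Ighg2c, chr12:113288263-113288325: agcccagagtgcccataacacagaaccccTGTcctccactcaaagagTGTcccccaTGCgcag
Ighg3, chr12:113360529-113360576: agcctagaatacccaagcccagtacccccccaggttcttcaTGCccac
The exons are 39, 66, 63 and 48 bases long in this order and hold 4, 4, 3 and 1 cysteine codons. Of all 50-base words in the exons of a gene, 0.393% for Ighg1, 4.15% for Ighg2b, 5.49% for Ighg2c and 1.58% for Ighg3 also occur in another constant gene, so the counting could split some reads between subclasses. No 50-base word of Igha, Ighm, Ighd, Igkc, Jchain or Pigr was shared in this way.

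Per kilobase of exon, Igkc had the highest mean level over the 8 libraries at 940.4 CPM per kb, then Pigr at 890.3, Igha at 439, Jchain at 47.2, Ighg1 at 27.7, Ighm at 26.6 and Ighd at 8.48 CPM per kb. Ighg2b, Ighg3 and Ighg2c followed at 1.5, 0.70 and 0.229 CPM per kb. Within libraries, Pigr was above Igha, Igha above Jchain, Jchain above Ighg1 and Ighm above Ighd in 8 of 8. Igkc was above Pigr in 4 of 8 and Ighg1 above Ighm in 4 of 8, so these neighbours had no fixed order. Ighd was above Ighg2b in 7 of 8, Ighg2b above Ighg3 in 5 of 8 and Ighg3 above Ighg2c in 5 of 8. The lengths are those of all annotated exons together, membrane exons included, so the order can depend on which exons are used.

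The secreted IgA module, Igha with Igkc and Jchain, varied most among the C. albicans libraries, whose SD exceeded every difference between group means. Igha stood at 1466 and 776 CPM in the 2 C. tropicalis libraries, at 2657, 1313 and 736 CPM in the 3 C. albicans libraries, and at 378, 962 and 1089 CPM in the 3 controls. C. albicans 1 was the highest and control 1 the lowest of the 8, 7.04-fold apart, and the groups overlapped. The means were 1121 ± 487 CPM with C. tropicalis, 1569 ± 986 CPM with C. albicans and 810 ± 379 CPM in controls (SD, n = 2, 3 and 3). In edgeR's quasi-likelihood test with Benjamini-Hochberg adjustment over all tested genes, the log2 fold change of Igha was 0.47 ± 0.56 (SE) for C. tropicalis against control, with an adjusted p of 0.711. For C. albicans against control it was 0.95 ± 0.51, with an edgeR adjusted p of 0.389. The 95% interval of the C. albicans fold ran from 0.866 to 4.34, so the data allow both a small decrease and a large increase of Igha mRNA.

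**Figure D1:**
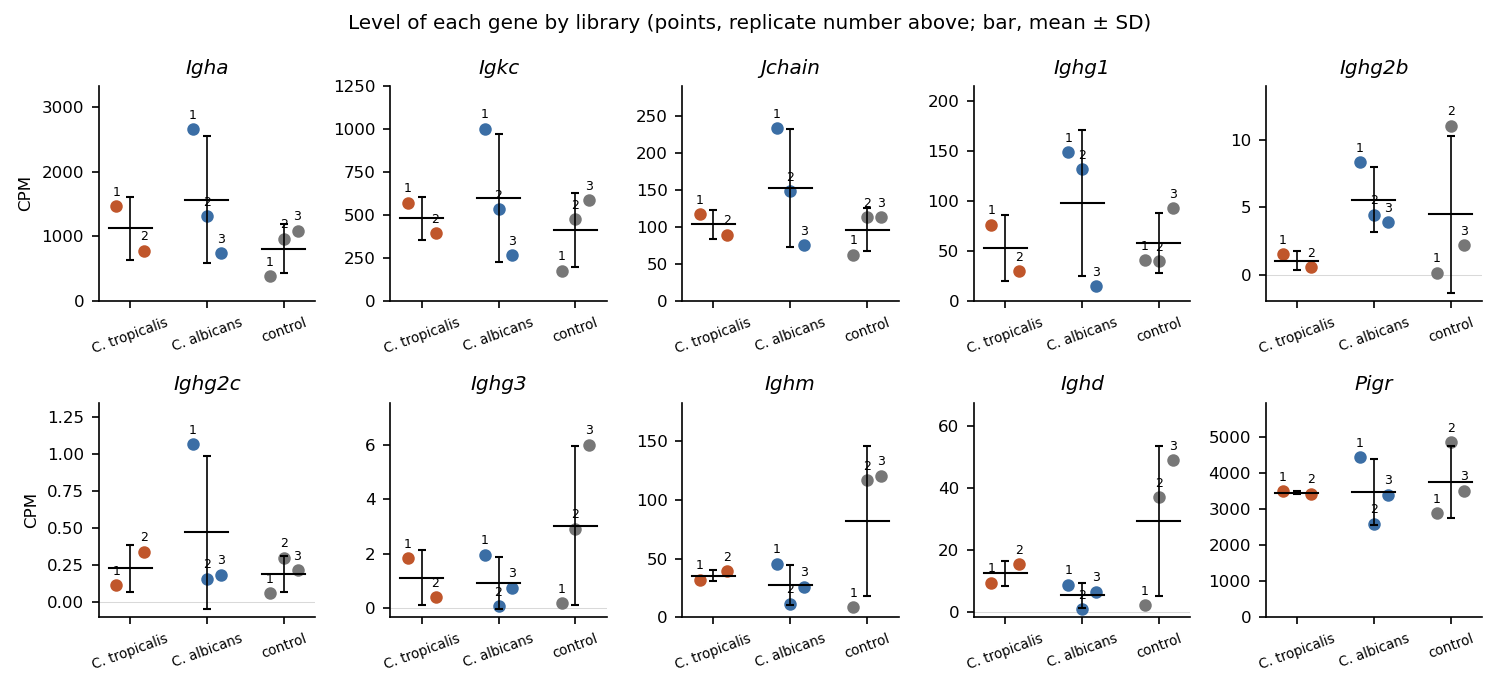
CPM (counts per 1000000 TMM-scaled counts, linear axes that differ between panels) of the 10 genes in C. tropicalis (n = 2), C. albicans (n = 3) and control (n = 3) libraries. Points are libraries with their replicate number, horizontal bars group means and error bars SD. The group ranges overlap in most panels, and control 1 lies far below controls 2 and 3 for Ighm and Ighd.

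Igkc, the constant region of the kappa light chain, had 571 and 393 CPM with C. tropicalis, 1002, 534 and 265 CPM with C. albicans, and 176, 474 and 588 CPM in controls. Jchain, whose product links IgA dimers and IgM polymers, had 117 and 89.1 CPM with C. tropicalis, 233, 148 and 74.8 CPM with C. albicans, and 62.1, 112.7 and 113.2 CPM in controls. Both genes thus had the same extremes as Igha, with C. albicans 1 highest and control 1 lowest. The log2 fold changes of Igkc were 0.22 ± 0.57 for C. tropicalis against control, 0.54 ± 0.51 for C. albicans against control and -0.32 ± 0.58 for C. tropicalis against C. albicans, with edgeR adjusted p-values of 0.872, 0.614 and 0.790. Those of Jchain were 0.10 ± 0.42, 0.66 ± 0.38 and -0.56 ± 0.43 in the same order, with edgeR adjusted p-values of 0.923, 0.411 and 0.483. For Igha the direct comparison of the species gave -0.48 ± 0.58, with an edgeR adjusted p of 0.665. None of the 3 genes passed in any comparison, beside 0.031% of all tested genes for C. tropicalis against control, 0.0435% for C. albicans against control and 0.0% between the species. Without C. albicans 1 the log2 fold changes for C. albicans against control were 0.38 for Igha, -0.0047 for Igkc and 0.26 for Jchain, and without control 1 they were 0.61, 0.18 and 0.43. For C. tropicalis against control they were 0.13, -0.14 and -0.13 without control 1.

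Plasma cell markers were set beside these genes as values. The 6 markers fixed for plasma cells, all with counts in every library, summed to 483 and 530 CPM with C. tropicalis, 538 to 634 CPM with C. albicans and 382 to 493 CPM in controls, but Sdc1 and Xbp1, which epithelial cells also express, make up most of this sum. Mzb1, a chaperone of antibody-secreting cells, had 3.20 and 2.49 CPM with C. tropicalis, 8.87, 5.82 and 2.80 CPM with C. albicans, and 2.34, 5.77 and 7.57 CPM in controls. The survival receptor Tnfrsf17 (BCMA) had 0.628 and 0.226 CPM with C. tropicalis, 1.01, 0.839 and 0.244 CPM with C. albicans, and 0.228, 0.655 and 0.913 CPM in controls. Both genes were highest in C. albicans 1 and overlapped between groups, and both were named after their values had been seen. Tnfrsf17 had only 18 counts in C. albicans 1 and 17 in control 3, so its order is uncertain. Derl3 was also highest there, at 6.91 CPM, but the other markers were not. Prdm1, a transcription factor of plasma cells, and Sdc1 were highest in C. albicans 3, at 2.62 and 423 CPM, and Xbp1 in C. tropicalis 1, at 252 CPM. Their part in the spread of Igha, Igkc and Jchain was not tested.

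IgM and IgD constant transcripts showed another split, which ran through the controls. Ighm had 32.1 and 39.1 CPM with C. tropicalis, 45.7, 11.7 and 26.2 CPM with C. albicans, and 8.79, 117 and 121 CPM in controls. Ighd (ENSMUSG00000104213, chr12:113406604-113416324) had 9.47 and 15.3 CPM with C. tropicalis, 8.71, 0.892 and 6.52 CPM with C. albicans, and 2.17, 37.0 and 48.8 CPM in controls. Controls 2 and 3 stood above all 5 colonized libraries for both genes, whereas control 1 was the lowest of all 8 for Ighm and below all but C. albicans 2 for Ighd. The whole range over the libraries was 13.7-fold for Ighm and 54.7-fold for Ighd. For C. tropicalis against control the log2 fold changes were -1.21 ± 0.89 for Ighm and -1.24 ± 1.06 for Ighd, with edgeR adjusted p-values of 0.530 and 0.587. For C. albicans against control they were -1.56 ± 0.79 for Ighm and -2.45 ± 0.98 for Ighd, with edgeR adjusted p-values of 0.364 and 0.294.

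A B cell marker, added after its values had been seen, set the same libraries apart. It is among the 4 genes closest in profile to Ighm, so its likeness to Ighm is no separate support. Cd79a, a signalling chain of the B cell receptor, had 25.1 and 34.1 CPM with C. tropicalis, 26.4, 5.72 and 20.5 CPM with C. albicans, and 6.39, 102 and 92.6 CPM in controls. Controls 2 and 3 were again the highest, and control 1 and C. albicans 2 the lowest. The 10 T cell markers, all with counts in every library, summed to 17.1 and 18.5 CPM with C. tropicalis, 22.3, 15.6 and 15.4 CPM with C. albicans, and 11.2, 40.4 and 34.8 CPM in controls, also highest in controls 2 and 3. Markers of follicular stroma and lymphoid tissue, 7 of the 8 fixed ones being in the table, summed to 176 to 216 CPM with C. tropicalis, 87.0 to 185 CPM with C. albicans and 81.4 to 398 CPM in controls. Lymphoid follicles are scattered along the mouse colon, and how much follicle each piece of tissue held is not recorded in the labels. The part of follicles and of T cells in the Ighm and Ighd values was not tested. With control 1 left out, the log2 fold change for C. tropicalis against control was -1.74 for Ighm and -1.79 for Ighd, with edgeR adjusted p-values of 0.246 and 0.344. Likewise, the log2 fold change for C. albicans against control was -2.09 for Ighm and -3.004 for Ighd, with edgeR adjusted p-values of 0.0895 and 0.0903, which still missed the threshold of 0.05.

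Between the species, Ighd was higher in both C. tropicalis libraries than in all 3 C. albicans libraries. This was 1 of only 2 tested members whose values did not overlap between these groups, and 23.4% of all tested genes were higher without overlap in the same comparison. Its log2 fold change was 1.21 ± 1.05, with an edgeR adjusted p of 0.536. Ighm overlapped, at 0.35 ± 0.86 on the log2 scale, with an edgeR adjusted p of 0.847. The lowest C. tropicalis value of Ighd, 9.47 CPM, lies close to the highest C. albicans value, 8.71 CPM.

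Among the IgG subclasses Ighg1 (ENSMUSG00000076614, chr12:113325240-113330523) was the main transcript. It had 76.2 and 29.5 CPM with C. tropicalis, 149, 132 and 14.5 CPM with C. albicans, and 40.9, 39.6 and 92.7 CPM in controls. The C. albicans libraries held both the highest and the lowest value, so that group alone spanned the other groups. The log2 fold changes were -0.13 ± 0.81 for C. tropicalis against control, 0.77 ± 0.72 for C. albicans against control and -0.90 ± 0.83 for C. tropicalis against C. albicans, with edgeR adjusted p-values of 0.952, 0.610 and 0.563. Ighg1 made up 95.6% and 95.8% of the IgG subclass counts with C. tropicalis, 92.9%, 96.6% and 75.1% with C. albicans, and 99.0%, 73.6% and 91.7% in controls.

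Ighg2b (ENSMUSG00000076613, chr12:113302965-113307933) had 1.54 and 0.566 CPM with C. tropicalis, 8.31, 4.46 and 3.90 CPM with C. albicans, and 0.171, 11.01 and 2.20 CPM in controls. Both C. tropicalis libraries lay below all C. albicans libraries, while the controls spanned both groups. In the direct comparison 22.4% of all tested genes were lower with C. tropicalis without overlap, and Ighg2b had a log2 fold change of -2.39 ± 1.22, with an edgeR adjusted p of 0.278. Fitted on these 5 libraries alone, it came nearest to the threshold of all alternatives tried, at an edgeR adjusted p of 0.0501. That fit also called many more genes over the whole table than the main fit, as given in the last section. Against control the log2 fold changes of Ighg2b were -2.07 ± 1.21 for C. tropicalis and 0.32 ± 0.95 for C. albicans, with edgeR adjusted p-values of 0.432 and 0.881. They rest on control 2, without which they stood at -0.17 and 2.24. These values rest on 10 to 27 counts per C. tropicalis library, 64 to 148 per C. albicans library and 3 to 185 per control.

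The remaining heavy chain genes had few counts in most libraries. Where a library has 0 counts, a level of up to 3 counts remains possible, which is 0.152 to 0.185 CPM in these libraries and considers counting error alone. Ighg3 (ENSMUSG00000076615, chr12:113356224-113361232) had 1.83 and 0.396 CPM with C. tropicalis, 1.97, 0.0524 and 0.731 CPM with C. albicans, and 0.171, 2.92 and 6.02 CPM in controls. Like Ighm and Ighd, it was highest in controls 2 and 3, with 49 and 112 counts, against 1 to 35 counts in the other libraries. Its log2 fold changes were -1.45 ± 1.30 for C. tropicalis against control, -1.73 ± 1.15 for C. albicans against control and 0.28 ± 1.32 for C. tropicalis against C. albicans, with edgeR adjusted p-values of 0.606, 0.474 and 0.923. Without control 1 it stood at -2.005 for C. tropicalis against control and -2.29 for C. albicans against control, and without control 3 at -0.47 and -0.75. Ighg2c (ENSMUSG00000076612, chr12:113285325-113288932), the C57BL/6 counterpart of the Ighg2a gene of other strains, had 0.114 and 0.340 CPM with C. tropicalis, 1.07, 0.157 and 0.183 CPM with C. albicans, and 0.0571, 0.298 and 0.215 CPM in controls. Only C. albicans 1, with 19 counts, stood well above the floor.

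Genes of the other antibody classes were read for comparison. Ighe, the IgE constant region, had 11 and 3 counts with C. tropicalis, 24, 14 and 1 counts with C. albicans, and 5, 1 and 1 counts in controls. Its log2 fold change for C. albicans against control was 2.38 ± 1.02, with an edgeR adjusted p of 0.315. Most light chain counts were kappa, with 98.0% and 96.4% of the constant region counts with C. tropicalis, 97.2%, 98.0% and 96.6% with C. albicans, and 98.0%, 94.0% and 97.5% in controls. Of the lambda genes, Iglc1 had 8.67 and 9.40 CPM with C. tropicalis, 22.2, 8.60 and 4.75 CPM with C. albicans, and 2.17, 17.1 and 6.93 CPM in controls. Iglc2 and Iglc3 were lower, and their exons share 7.65% and 10.7% of 50-base words, so their counts are uncertain. In the adjusted test no lambda gene passed in any comparison, the smallest edgeR adjusted p being 0.450 for Iglc3 with C. albicans against control.

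Pigr, by contrast, was abundant and even. It had 3501 and 3431 CPM with C. tropicalis, 4443, 2604 and 3410 CPM with C. albicans, and 2896, 4860 and 3522 CPM in controls. The highest library was 1.87-fold above the lowest, and the groups overlapped. The means were 3466 ± 49.5 CPM with C. tropicalis, 3486 ± 922 CPM with C. albicans and 3760 ± 1003 CPM in controls (SD, n = 2, 3 and 3). The log2 fold change was -0.12 ± 0.27 for C. tropicalis against control, with a 95% interval of the fold from 0.601 to 1.41 and an edgeR adjusted p of 0.859. For C. albicans against control it was -0.11 ± 0.24, with an interval from 0.633 to 1.36 and an edgeR adjusted p of 0.840. The species differed by -0.0084 ± 0.27 on the log2 scale, with an interval of the fold from 0.649 to 1.52 and an edgeR adjusted p of 0.988. A p that misses the threshold does not show equality, but these intervals leave out a doubling or a halving of Pigr mRNA in each of the 3 comparisons. Pigr alone took 0.342% and 0.344% of all counts with C. tropicalis, 0.442%, 0.251% and 0.328% with C. albicans, and 0.313%, 0.471% and 0.371% in controls. The summed colon epithelium markers did not overlap between C. tropicalis (25519 to 28354 CPM) and controls (20784 to 23066 CPM). Pigr levels are not adjusted for this, and its part in them was not tested.

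**Figure D2:**
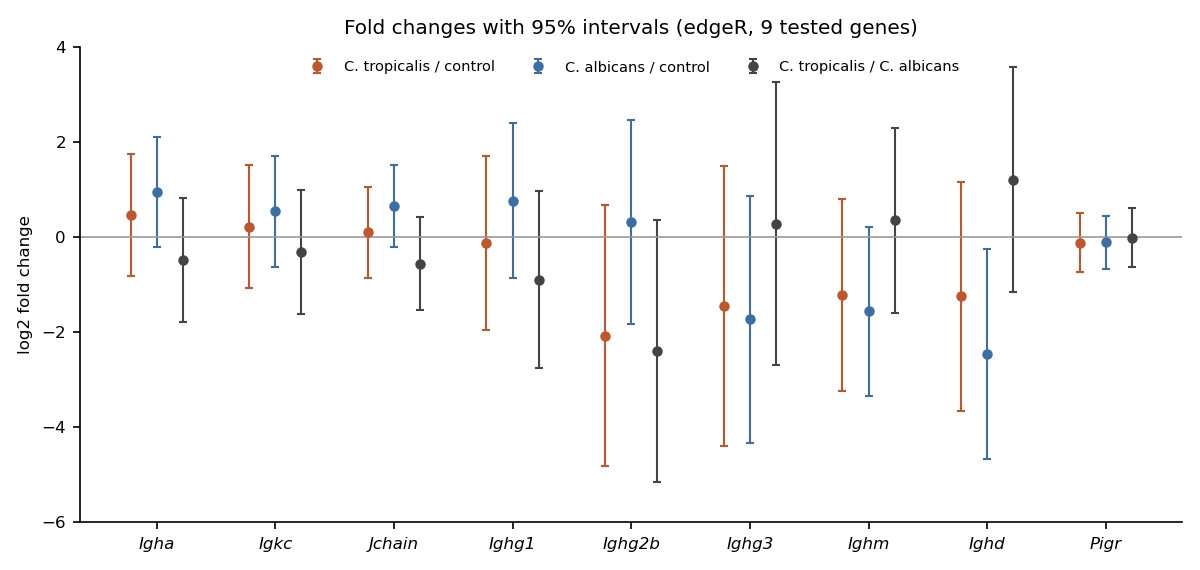
Log2 fold change (points) with 95% interval (bars) from edgeR for the 9 tested genes, as C. tropicalis over control, C. albicans over control and C. tropicalis over C. albicans. Only the interval of Ighd for C. albicans over control leaves out 0, and its adjusted p of 0.294 missed the threshold. The Pigr intervals are the narrowest.

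In all, 0 of the 9 tested members passed in each of the 3 comparisons with edgeR's quasi-likelihood test. Over all 16107 genes 0.031% passed for C. tropicalis against control, 0.0435% for C. albicans against control and 0.0% for C. tropicalis against C. albicans, so a count of 0 members is near the background. At an unadjusted p under 0.05 the members numbered 0 for C. tropicalis against control, 1 for C. albicans against control (Ighd) and 0 for C. tropicalis against C. albicans, where 15.4%, 15.4% and 23.2% of all genes lay under it. DESeq2's Wald test, which called 393, 461 and 1737 genes in these comparisons, also called 0 members, as did limma-voom. Without overlap between groups were 0 of 9 members for C. tropicalis against control (32.5% of all genes, or 16.1% higher and 16.4% lower), 0 of 9 for C. albicans against control (19.4%, or 9.82% higher and 9.55% lower) and 2 of 9 for C. tropicalis against C. albicans (45.9%). The comparisons of each species with control share the 3 control libraries.

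The share of IgA among the heavy chain transcripts did not overlap between colonized libraries and controls. IgA took 92.3% and 90.1% of the heavy chain constant counts with C. tropicalis, 92.5%, 89.8% and 93.4% with C. albicans, and 87.8%, 82.2% and 80.1% in controls. All 5 colonized libraries lay above all 3 controls, which are the same libraries in both comparisons. The mean share was 91.2% ± 1.57 with C. tropicalis, 91.9% ± 1.89 with C. albicans and 83.4% ± 3.97 in controls (SD, n = 2, 3 and 3), a difference of 7.84 points for C. tropicalis and 8.51 points for C. albicans. The Wilson 95% interval of this IgA share spanned at most 1.48 points, for counting error only. These shares are scores over the chosen genes and carry no test. Values did not overlap in 7 of 72 comparisons of 24 such measures between groups, and this share accounts for 2 of the 7. Some of these measures are built from the same counts. Of all tested genes, 32.5% did not overlap for C. tropicalis against control, 19.4% for C. albicans against control and 45.9% between the species. A lack of overlap is thus common in these libraries. With each library left out in turn the difference ran from 6.20 to 10.04 points for C. tropicalis against control and from 6.87 to 10.7 points for C. albicans against control. Its direction could not turn in this way, because no values overlapped.

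The share left over by IgA was filled by different classes in different controls. IgM and IgD together took 2.62% and 6.31% with C. tropicalis, 1.89%, 0.864% and 4.15% with C. albicans, and 2.55%, 13.1% and 12.5% in controls. The IgG subclasses took 5.02% and 3.57% with C. tropicalis, 5.57%, 9.33% and 2.45% with C. albicans, and 9.60%, 4.599% and 7.44% in controls. Control 1 thus held little IgM and IgD and the most IgG, whereas controls 2 and 3 held the most IgM and IgD. These were also the 2 libraries with the highest level of Cd79a, a marker added after its values had been seen. When the share was taken over IgA and IgG alone, a measure added after the values had been seen, it was 94.8% and 96.2% with C. tropicalis, 94.3%, 90.6% and 97.4% with C. albicans, and 90.1%, 94.7% and 91.5% in controls. On this measure C. albicans overlapped the controls, and the C. tropicalis libraries lay above the highest control by a margin of under 1 point.

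**Figure D3:**
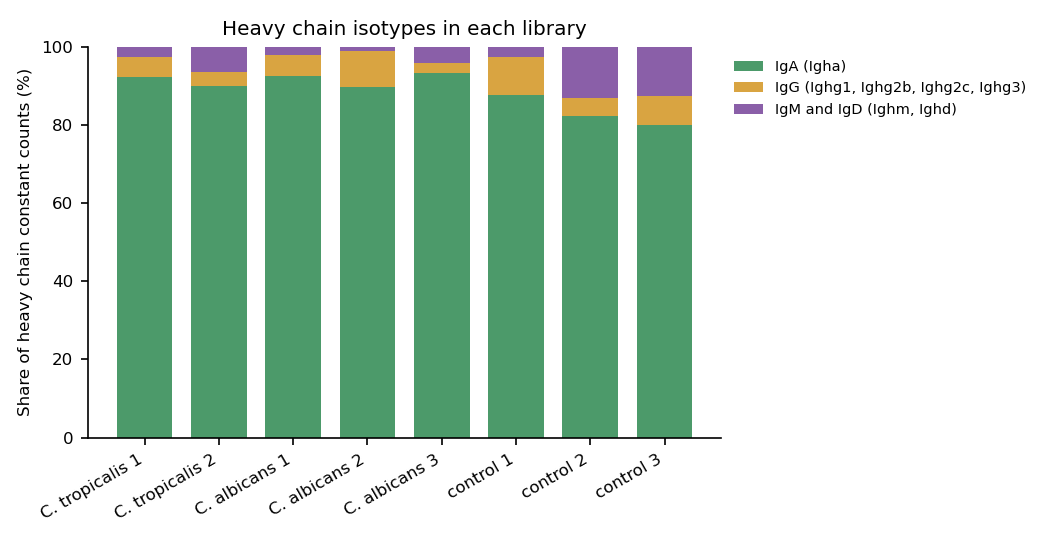
Percent of heavy chain constant counts on IgA (Igha), IgG (Ighg1, Ighg2b, Ighg2c and Ighg3) and IgM with IgD (Ighm and Ighd) in each library, C. tropicalis (n = 2), C. albicans (n = 3) and control (n = 3). The IgA part is 89.8% or more in the colonized libraries and 87.8% or less in the controls.

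Ratios between members do not depend on library size. The log2 ratio of Igkc to Igha CPM averaged -1.17 ± 0.27 with C. tropicalis, -1.39 ± 0.09 with C. albicans and -1.005 ± 0.11 in controls, and all C. albicans libraries lay below all controls. The log2 ratio of Jchain to Igha averaged -3.38 ± 0.37 with C. tropicalis, -3.32 ± 0.18 with C. albicans and -2.99 ± 0.34 in controls, with overlap. Relative to Ighm, Ighd averaged -1.56 ± 0.29 with C. tropicalis, -2.71 ± 0.90 with C. albicans and -1.66 ± 0.36 in controls, and both C. tropicalis libraries lay above all C. albicans libraries. Per unit of Igha, Pigr averaged 1.70 ± 0.63 with C. tropicalis, 1.31 ± 0.79 with C. albicans and 2.32 ± 0.62 in controls on the log2 scale, again with overlap. All these ratios are given as SD over n = 2, 3 and 3 libraries, without a test. Of all tested genes, 19.4% did not overlap for C. albicans against control and 45.9% between the species.

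Variable segments, the parts of the antibody that bind antigen and that differ between B cell clones, were read from the same table. It lists 113 Ighv and 100 Igkv segments, of which 100 and 90 had a count in some library. Counts per library were 680 to 4533 for Ighv and 765 to 5232 for Igkv. Many segments are near-identical and reads over the rearranged junction may be lost, so the assignment of reads to single segments is uncertain. The segment with the most counts differed from library to library. For the heavy chain it was Ighv1-64 with 23.8% and Ighv7-1 with 19.4% of the Ighv counts in C. tropicalis 1 and 2. In C. albicans 1, 2 and 3 it was Ighv1-47 with 8.60%, Ighv1-52 with 15.4% and Ighv1-47 with 12.5%. Controls 1, 2 and 3 had Ighv9-3 with 30.9%, Ighv1-15 with 8.10% and Ighv9-3 with 12.1%. This made 6 different leading segments in 8 libraries, and for the kappa chain it made 7.

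**Figure D4:**
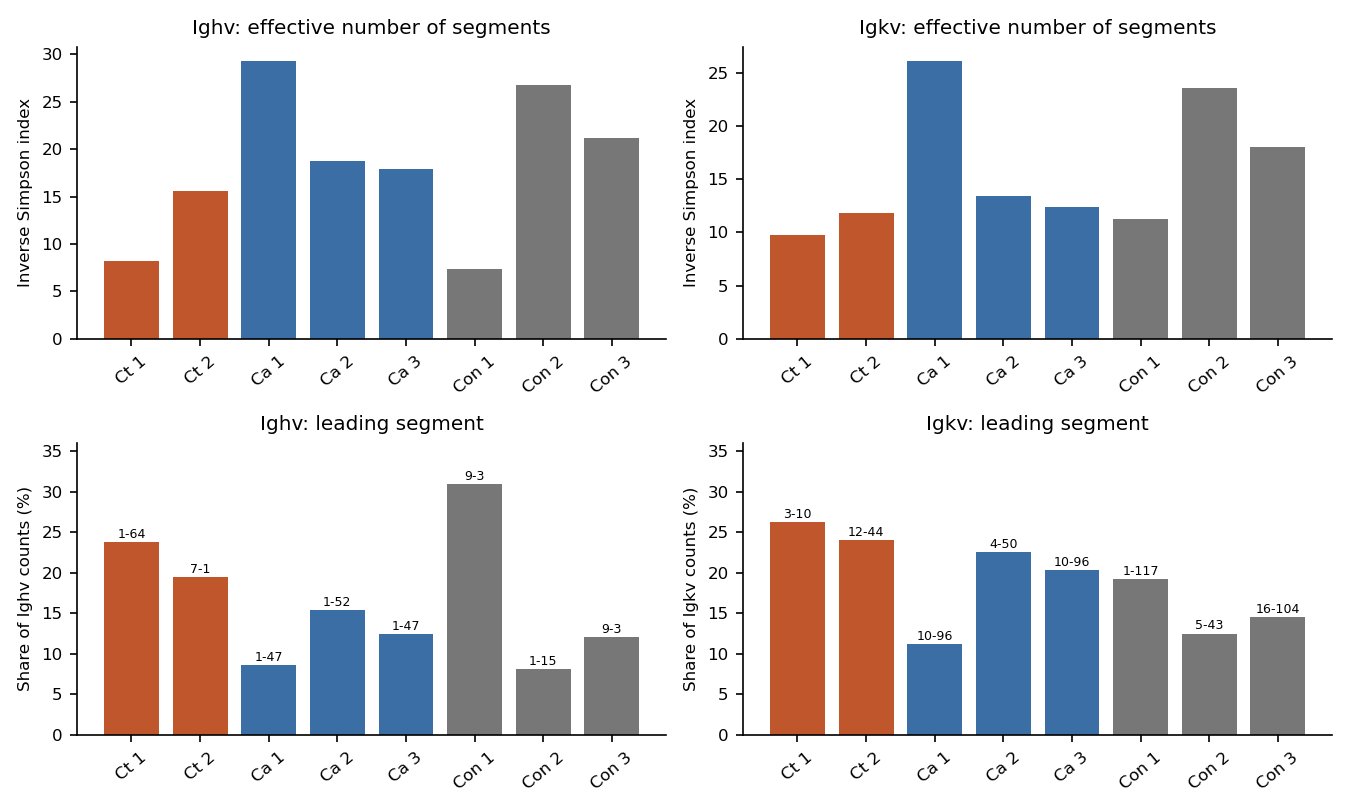
Effective number of variable segments (inverse Simpson index, upper panels) and percent of the family's counts on the leading segment, named above its bar without the prefix (lower panels), for Ighv (left) and Igkv (right). Bars are single libraries, Ct for C. tropicalis (n = 2), Ca for C. albicans (n = 3) and Con for control (n = 3). The leading Ighv share runs from 8.10% to 30.9%.

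The most abundant segments by mean share were Ighv9-3, Ighv1-64 and Ighv1-47 among Ighv, with 6.30%, 5.28% and 5.24%, and Igkv10-96, Igkv1-110 and Igkv14-111 among Igkv, with 7.65%, 7.46% and 5.78%. Ighv1-64 (chr12:115507545-115508031) took 23.8% and 0.143% in the C. tropicalis libraries, 0.640%, 1.23% and 9.50% in the C. albicans libraries, and 1.76%, 2.29% and 2.88% in controls, so its mean rests on C. tropicalis 1. Ighv9-3 (chr12:114140692-114141122) took 2.61% and 0.357% with C. tropicalis, 1.59%, 1.30% and 0.937% with C. albicans, and 30.9%, 0.653% and 12.1% in controls, so its rank rests on control 1. Ighv1-47 (chr12:114991108-114991580) took 2.57% and 3.00% with C. tropicalis, 8.60%, 6.81% and 12.5% with C. albicans, and 1.176%, 3.27% and 4.02% in controls, and was higher in all 3 C. albicans libraries than in all other libraries. It was chosen by its abundance in these libraries, and this share was not tested. How many other segments set a group apart in this way was not counted. Igkv14-111 (chr6:68256389-68256869) took 12.8% and 10.2% with C. tropicalis, 4.42%, 3.69% and 3.03% with C. albicans, and 1.96%, 2.03% and 8.07% in controls.

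How evenly the counts were spread over segments was measured by the inverse Simpson index, the number of equally used segments that would give the same evenness. For Ighv it was 8.25 and 15.6 with C. tropicalis, 29.3, 18.8 and 17.9 with C. albicans, and 7.32, 26.8 and 21.2 in controls. For Igkv it was 9.79 and 11.8 with C. tropicalis, 26.1, 13.4 and 12.4 with C. albicans, and 11.2, 23.5 and 18.0 in controls. The index was lower in both C. tropicalis libraries than in all C. albicans libraries for both chains, and control 1, the library with the least Igha, had the lowest heavy chain value of all. Over 12 exact two-sided permutation tests on 4 measures (both indices, the percent of all counts on Ighv and Igkv, and the lambda share of light chain constant counts), the adjusted p was 1 for each, and the smallest p possible was 0.1 for 3 against 3 libraries and 0.2 for 2 against 3, so this design could make no call. The difference between the species was -10.1 for Ighv and -6.50 for Igkv, each with an exact permutation p of 0.2. Expected segment numbers at an equal count total differed in the other direction, by 0.735 and 1.85 segments. They measure how many segments occur and not how evenly counts are spread, so they do not test the index.

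Genes outside the antibody loci were then ranked by how closely their profile over the 8 libraries followed that of a member, as the mean absolute difference of log2 CPM centred on the gene's own mean, among 13283 genes with a mean of at least 1 CPM. Igha was followed most closely by Ccr10, the receptor by which IgA plasma cells home to the colon, with a mean difference of 0.25 log2 units, against 0.59 for the deviation of Igha from its own mean. Ccr10 had 3.54 and 2.60 CPM with C. tropicalis, 6.80, 4.56 and 4.20 CPM with C. albicans, and 1.20, 3.81 and 3.92 CPM in controls. The complement chain C1qc, the interferon-inducible Ifi207 and the lipid transfer protein Pltp came next, at 0.31, 0.31 and 0.34. Among the members, Igkc and Jchain lay at 0.19 and 0.22 from Igha. For Jchain the closest were Lrrc25 (0.22), the IgG receptor Fcgr3 (0.24), Zmym1 (0.25) and the BMP ligand Bmp6 (0.25).

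Ighm was followed by Fcrla, an Fc receptor-like protein of B cells, at 0.10 log2 units, against 1.02 for its own deviation. Lymphotoxin beta (Ltb), the CD45-associated Ptprcap and Cd79a came next, at 0.21, 0.22 and 0.22, nearer to Ighm than the members Ighd (0.49) and Ighg3 (0.63). Pigr was followed by Smpdl3a (0.061), Foxred2 (0.092), the interleukin 17 receptor chain Il17ra (0.098) and Tesk2 (0.10), and its own deviation was 0.20. These genes were picked as the closest of many over 8 libraries that share group and tissue make-up, so the distances are a description.

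**Figure D5:**
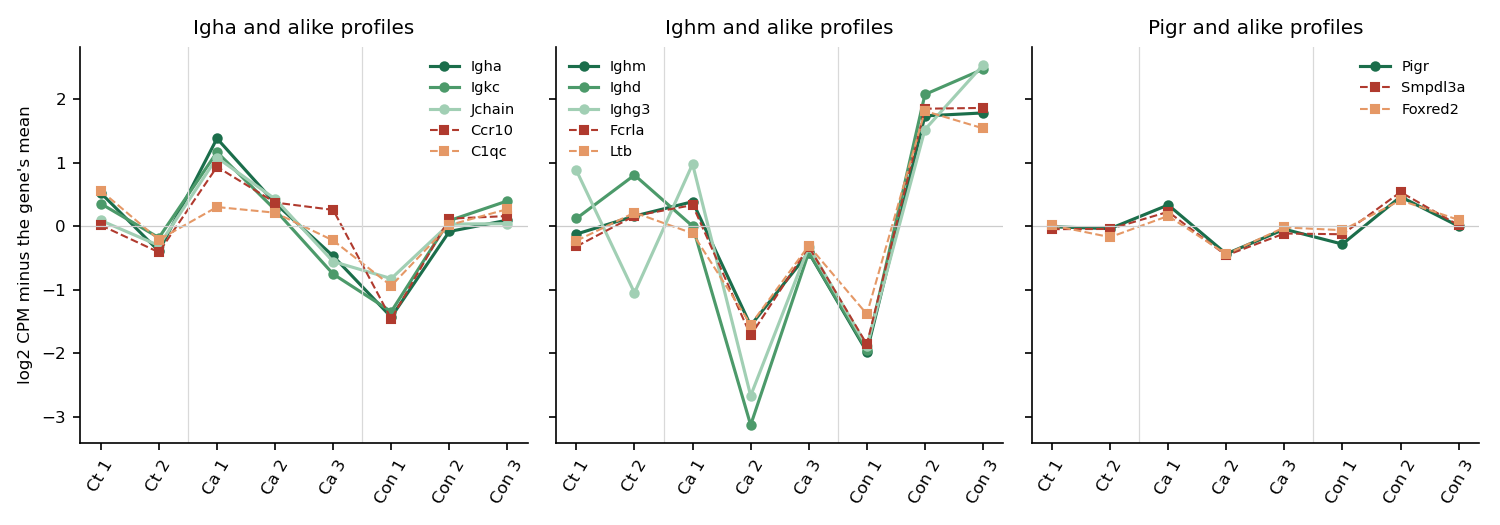
Log2 CPM minus the gene's mean over the 8 libraries, for Igha, Ighm and Pigr with members (green circles) and with the closest other genes (squares), in C. tropicalis (Ct, n = 2), C. albicans (Ca, n = 3) and control (Con, n = 3) libraries. Igha, Igkc, Jchain and Ccr10 have their highest value in Ca 1 and their lowest in Con 1, and Ighm with Fcrla and Ltb is highest in Con 2 and Con 3.

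Genes around the antibody system were counted on lists, with 0 called in either direction in every list and comparison in edgeR's adjusted test. Without control 1, too, 0 were called. In that fit 3 medians for C. tropicalis against control changed sign, to -0.26 for IgA induction, -0.02 for Pigr regulators and -0.05 for antibody-binding genes. The medians below are log2 fold changes, beside medians over all tested genes of -0.02 for C. tropicalis against control, -0.02 for C. albicans against control and 0.04 for C. tropicalis against C. albicans. Of 20 genes of the plasma cell programme, 12 lay above 0 with C. tropicalis against control (median 0.04), 13 with C. albicans against control (median 0.13) and 10 with C. tropicalis against C. albicans (median -0.0045). Creld2, an endoplasmic reticulum protein of stressed and secretory cells, averaged 84.8 ± 14.9 CPM with C. tropicalis, 85.7 ± 29.9 CPM with C. albicans and 39.0 ± 3.73 CPM in controls. Its log2 fold changes against control were 1.12 ± 0.26 with C. tropicalis and 1.14 ± 0.23 with C. albicans, with edgeR adjusted p-values of 0.165 and 0.133. Sdc1, the plasma cell and epithelial surface proteoglycan CD138, averaged 257 ± 16.4 CPM with C. tropicalis, 377 ± 65.4 CPM with C. albicans and 253 ± 34.3 CPM in controls, at 0.57 ± 0.17 for C. albicans against control with an edgeR adjusted p of 0.231. Sdf2l1, a chaperone partner, averaged 74.4 ± 6.16 CPM with C. tropicalis and 42.1 ± 8.42 CPM in controls, with an edgeR adjusted p of 0.244.

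B cell markers were the list furthest from the median of all genes. Of 19 genes, 1 lay above 0 for C. tropicalis against control (median -1.005), 0 for C. albicans against control (median -1.82) and 17 for C. tropicalis against C. albicans (median 0.76). Pax5, which fixes B cell identity, averaged 2.11 ± 1.47 CPM with C. albicans and 13.1 ± 10.5 CPM in controls, at -2.63 ± 0.91 with an edgeR adjusted p of 0.263. The smallest adjusted p was that of Ralgps2, a Ral exchange factor, which averaged 63.5 ± 4.81 CPM with C. tropicalis, 40.3 ± 1.42 CPM with C. albicans and 54.6 ± 4.91 CPM in controls. For C. tropicalis against C. albicans its log2 fold change was 0.66 ± 0.13, with an edgeR adjusted p of 0.0646. The early B cell factor Ebf1 averaged 2.58 ± 0.43 CPM with C. tropicalis and 4.93 ± 1.63 CPM in controls, at -0.93 ± 0.36 with an edgeR adjusted p of 0.291. Fcmr, the IgM Fc receptor, averaged 10.7 ± 2.75 CPM with C. tropicalis and 3.91 ± 2.62 CPM with C. albicans, with an edgeR adjusted p of 0.436. Ralgps2 did not follow the split between the controls, with 52.0, 60.3 and 51.6 CPM in controls 1, 2 and 3. With control 1 left out, a choice made after seeing the data, this median was -1.52 for C. tropicalis against control and -2.35 for C. albicans against control, with 0 genes called.

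The signals that switch B cells to IgA and bring plasma cells to the gut were measured by 30 genes, of which 23 passed the filter on low counts. Above 0 lay 12 of the 23 for C. tropicalis against control (median 0.04), 7 for C. albicans against control (median -0.26) and 16 for C. tropicalis against C. albicans (median 0.19). Ltb, needed for gut lymphoid tissue, averaged 9.89 ± 4.46 CPM with C. albicans and 32.7 ± 24.0 CPM in controls, at -1.73 ± 0.68 with an edgeR adjusted p of 0.288, and its receptor Ltbr averaged 224 ± 13.6 CPM with C. albicans and 172 ± 37.0 CPM in controls, with an edgeR adjusted p of 0.328. Tnfsf13b, the B cell survival factor BAFF, averaged 9.75 ± 0.58 CPM with C. tropicalis and 6.27 ± 0.68 CPM in controls, and the homing integrin chain Itga4 averaged 2.90 ± 0.26 CPM with C. tropicalis and 4.28 ± 0.25 CPM in controls. Their edgeR adjusted p-values were 0.317 and 0.329. Ccl28, the epithelial chemokine that attracts CCR10-bearing plasma cells, averaged 97.1 ± 20.5 CPM with C. tropicalis and 55.8 ± 20.7 CPM with C. albicans, at 0.80 ± 0.29 with an edgeR adjusted p of 0.151. The retinoic acid enzyme Aldh1a2 averaged 2.78 ± 0.23 CPM with C. tropicalis and 14.4 ± 10.6 CPM with C. albicans, at -2.37 ± 0.78 with an edgeR adjusted p of 0.120. Smooth muscle marker sums were also higher in every C. albicans library than in both C. tropicalis libraries, and their part in the Aldh1a2 value was not tested.

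Regulators of Pigr, which include cytokine receptors, NF-κB and interferon factors and the USF proteins, were represented by 19 tested genes. Of these, 10 lay above 0 for C. tropicalis against control (median 0.06), 12 for C. albicans against control (median 0.07) and 9 for C. tropicalis against C. albicans (median -0.03). The interleukin 4 receptor chain Il4ra averaged 24.4 ± 1.23 CPM with C. tropicalis, 49.6 ± 5.42 CPM with C. albicans and 40.1 ± 1.09 CPM in controls. Its log2 fold change was -0.72 ± 0.13 for C. tropicalis against control and -1.02 ± 0.13 for C. tropicalis against C. albicans, with edgeR adjusted p-values of 0.135 and 0.0646. Il17rc, the partner of Il17ra, averaged 469 ± 54.1 CPM with C. albicans and 265 ± 36.7 CPM in controls, at 0.82 ± 0.18 with an edgeR adjusted p of 0.151. The interferon gamma receptor chain Ifngr1 averaged 231 ± 19.0 CPM with C. albicans and 298 ± 30.9 CPM in controls (edgeR adjusted p 0.268), and Ifngr2 averaged 160 ± 3.82 CPM with C. tropicalis and 124 ± 12.4 CPM with C. albicans (edgeR adjusted p 0.179). Il1r1 averaged 10.7 ± 0.82 CPM with C. tropicalis and 17.7 ± 5.44 CPM in controls, with an edgeR adjusted p of 0.267. None passed, and Pigr itself stayed within 1.87-fold over the libraries.

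Antibody receptors and other genes linked to antibody binding were represented by 13 tested genes of 15. Of these, 7 lay above 0 for C. tropicalis against control (median 0.03), 5 for C. albicans against control (median -0.04) and 7 for C. tropicalis against C. albicans (median 0.03). Fcgr4, an activating IgG receptor of myeloid cells, averaged 0.879 ± 0.282 CPM with C. albicans and 0.402 ± 0.163 CPM in controls, with an edgeR adjusted p of 0.307. Fcgrt, the neonatal Fc receptor, averaged 85.4 ± 7.52 CPM with C. tropicalis, 107 ± 1.54 CPM with C. albicans and 110 ± 23.3 CPM in controls, with edgeR adjusted p-values of 0.350 for C. tropicalis against control and 0.300 against C. albicans. The transferrin receptor Tfrc averaged 70.8 ± 6.46 CPM with C. albicans and 110 ± 46.3 CPM in controls (edgeR adjusted p 0.333). Lgals3 averaged 1975 ± 140 CPM with C. tropicalis and 1434 ± 249 CPM in controls (edgeR adjusted p 0.360), and Cd209a 1.91 ± 0.45 CPM with C. tropicalis and 0.907 ± 0.382 CPM with C. albicans (edgeR adjusted p 0.253).

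The last list held 13 partners of receptor transport through the epithelium, of which 9 lay above 0 for C. tropicalis against control (median 0.07), 6 for C. albicans against control (median -0.15) and 8 for C. tropicalis against C. albicans (median 0.23). Rab17, an epithelial small GTPase of the transcytosis route, averaged 14.0 ± 2.62 CPM with C. tropicalis, 22.9 ± 4.03 CPM with C. albicans and 29.7 ± 6.70 CPM in controls. Its log2 fold change was -1.08 ± 0.24 for C. tropicalis against control and -0.71 ± 0.24 for C. tropicalis against C. albicans, with edgeR adjusted p-values of 0.164 and 0.127. The endosomal GTPase Rab5a averaged 42.4 ± 4.71 CPM with C. albicans and 54.4 ± 7.12 CPM in controls (edgeR adjusted p 0.279), and the kinase Yes1 18.0 ± 1.47 CPM with C. albicans and 22.3 ± 2.95 CPM in controls (edgeR adjusted p 0.333). The chaperone Canx averaged 230 ± 12.03 CPM with C. tropicalis and 179 ± 25.3 CPM in controls (edgeR adjusted p 0.310), and the exocyst subunit Exoc4 23.8 ± 0.27 CPM with C. tropicalis and 19.1 ± 0.89 CPM with C. albicans (edgeR adjusted p 0.229). All means in these lists are given with SD over n = 2 C. tropicalis, 3 C. albicans and 3 control libraries.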

How the data were processed

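The deposited table holds counts, whole numbers of reads per Ensembl gene made by the authors, without normalization. Per the submitters' processing notes, TopHat2 2.0.12, HTSeq 6.1, DESeq 1.18.0 and mm10 were used. Which annotation, strand option or filter was used in counting is not given in the sources used here. Per the labels' protocols, libraries were made from total RNA with the NEBNext Ultra RNA kit, which keeps no strand, so a gene and an antisense partner over it cannot be told apart. GENCODE M21 (GRCm38) gave symbols, positions and exons for 52489 of 52636 identifiers, and the other 147 held 0.00317% of counts. All 8 libraries were fitted together in edgeR 4.0.16 (R 4.3.3) with TMM, filterByExpr, the quasi-likelihood F-test and Benjamini-Hochberg adjustment over 16107 genes at 0.05, with 5 residual degrees of freedom. SE is the log2 fold change divided by the square root of F. The fit was tested on simulated data. Differences between replicates exceeded sampling noise in every pair, so none was merged. Profiles used log2 CPM with a prior count of 2. The alternatives were DESeq2 1.42.0 (test or size factors), upper-quartile factors, limma-voom (limma 3.58.1), no filter, a stricter filter (at least 3 libraries with a CPM of 1 or more), a fit restricted to 2 groups, a block for replicate number, and each library left out in turn. By rule the text names every member, Ighe and the lambda genes, the 3 most abundant Ighv and Igkv segments, the 4 genes closest in profile to each of Igha, Jchain, Ighm and Pigr, and the 2 genes with the smallest p of each list and comparison. One marker gene and the summed level it enters are not reported here. Mzb1, Tnfrsf17 and the values of Cd79a were added as markers, and the leading segment of each library was named, after their values were seen. The members and lists were chosen with earlier results of these data known.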

Additional observations from a re-analysis of the deposited data

How the results depend on the processing

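No member passed under any of the 432 alternative fits of its fold changes (9 members, 3 comparisons), the smallest adjusted p being 0.0501. In 23 of them the direction turned, 21 with 1 library left out. The number of genes called over the table was less stable. For C. tropicalis against control (main 5) it was 393 with DESeq2, 71 without the filter, 0 with only the 2 groups, and 0 to 192 with 1 library left out. For C. albicans against control (main 7) it was 461 with DESeq2, 119 without the filter, and 0 to 254 with 1 library left out. For C. tropicalis against C. albicans (main 0) it was 1737 with DESeq2, 1127 without the filter, 858 with only the 2 groups, and 0 to 1315 with 1 library left out. With the replicate number as a block, 0 genes were called for each species against control, and the Jchain log2 fold change for C. tropicalis against control was -0.094. The labels do not say whether the numbers pair the libraries. Same-number deviations from the group mean correlated at 0.156 and 0.147 between the species, and at -0.0188 and 0.0290 between C. tropicalis and control. Between C. albicans and control they correlated at -0.392, -0.0795 and -0.128. These correlations cannot decide whether libraries are paired, because deviations within a group cancel out and those of 2 libraries are mirror images. With limma-voom Pigr stood at 0.025 for C. tropicalis against C. albicans.

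With each library left out in turn, log2 fold changes against control ran from -0.057 to 0.86 for Igha, -0.97 to 0.40 for Ighg1, -0.14 to 0.57 for Igkc, -0.13 to 0.29 for Jchain and -0.27 to 0.11 for Pigr with C. tropicalis, and from -0.24 to 2.24 for Ighg2b, -0.0047 to 0.93 for Igkc and -0.29 to 0.14 for Pigr with C. albicans. Between C. tropicalis and C. albicans they ran from -1.01 to 0.099 for Igha, -0.019 to 0.88 for Ighm, -1.19 to 1.51 for Ighg3, -0.69 to 0.24 for Igkc and -0.18 to 0.17 for Pigr. The sign of Igha turned without C. tropicalis 1 (against control) and without C. albicans 1 (between the species). The IgA share differed by 3.40 points (C. tropicalis against control), 2.004 points (C. albicans against control) and 1.40 points (C. tropicalis against C. albicans) when taken over IgA and IgG counts alone. With no overlap between colonized libraries and controls, leaving out 1 library could not turn the IgA share differences from control. The effective number of segments for C. albicans against control ran from -1.97 to 7.75 for Ighv and -4.71 to 2.66 for Igkv. Expected segment numbers at the smallest total, a measure of number and not of evenness, differed by -1.15 for Ighv in that comparison. Between the species the expected numbers differed by 0.735 for Ighv and 1.85 for Igkv. The cause of these changes was not tested. Depth limits Ighg2c, Ighg3 and Ighe most.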
